A study of Mus musculus with 4 samples.

Results

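Endothelial cells are held to each other by adhesion proteins in the membrane and by the catenins that tie them to the actin cytoskeleton, and 10 genes of these junctions are described here in Py-4-1, a cell line grown from a mouse tumour of endothelial cells. They are the cadherin gene Cdh5, the platelet-endothelial adhesion gene Pecam1, the claudin gene Cldn5, the junctional adhesion molecule genes Jam2 and F11r, their relative Esam, the nectin gene Nectin2, and the catenin genes Ctnnal1, Ctnnb1 and Jup. All 19 probe sets that the platform annotation gives to 1 of these symbols alone were kept, of 22626 probe sets and 12393 named genes on the array. The 10 genes were selected on their place in the junction and with the intensities and log2 changes of the comparison below already known, so that their values and counts describe these 4 clones and support nothing further.

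The clones labelled pcDNA/Prox1 (2 clones, described as stably expressing the lymphatic transcription factor Prox1) were compared with pcDNA clones (2 clones, described as control-transfected). Every clone was hybridised once, to a one-colour Affymetrix array. The sources used here give neither the promoter of the transgene nor the passage of the cells. Each group is 2 clones, and differences between clones, cultures and arrays cannot be told apart within it.

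At endothelial adherens junctions, VE-cadherin (Cdh5) molecules of neighbouring cells bind each other, and their tails hold beta-catenin (Ctnnb1) or plakoglobin (Jup), which in turn bind alpha-catenin. Claudin-5 and the junctional adhesion molecules JAM-A (F11r), JAM-B (Jam2) and ESAM belong to tight junctions. PECAM-1 lies along the whole border, and nectin-2 is bound inside the cell by afadin. Alpha-catulin (Ctnnal1) is related to alpha-catenin and vinculin. Beta-catenin is also the transcriptional effector of Wnt signalling.

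Prox1 itself was read by 1 probe set (1421336_at), at 62.4 and 44.3 in Prox1-labelled clones 1 and 2, against 52.1 and 60.5 in control clones 1 and 2. It was not higher in the clones labelled with it (log2 change -0.047, limma without the intensity filter, adjusted p = 0.963), and the sources used here do not say whether it reads the transfected sequence. Of 18 endothelial markers on the array 14 read above the brightest of 27 probe sets for Bacillus genes, array controls with no mouse target, on every array. Their summed intensity was 64663.5 and 61292 in Prox1-labelled clones 1 and 2, against 46053 and 61985 in control clones 1 and 2. Markers of other cells that also form such junctions were read too: the summed intensities of 14 epithelial markers were 1209 and 1071, against 1149.6 and 1045, and 4 of the 14 (Elf3, Grhl2, Krt8 and Cldn4) exceeded the Bacillus controls on every array, with Epcam, the epithelial adhesion molecule, and Cdh1, the epithelial cadherin, under them on all arrays. Of 11 leukocyte markers 2 exceeded those controls on every array, as did 6 of 8 platelet markers, 5 of 15 fibroblast and mural markers and 1 of 8 keratinocyte markers. The brightest Bacillus probe set read 45.3 to 101, under the array medians of 163 to 180. Most probe sets of each array thus exceeded it, so these counts do not by themselves show expression.

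**Figure D1:**
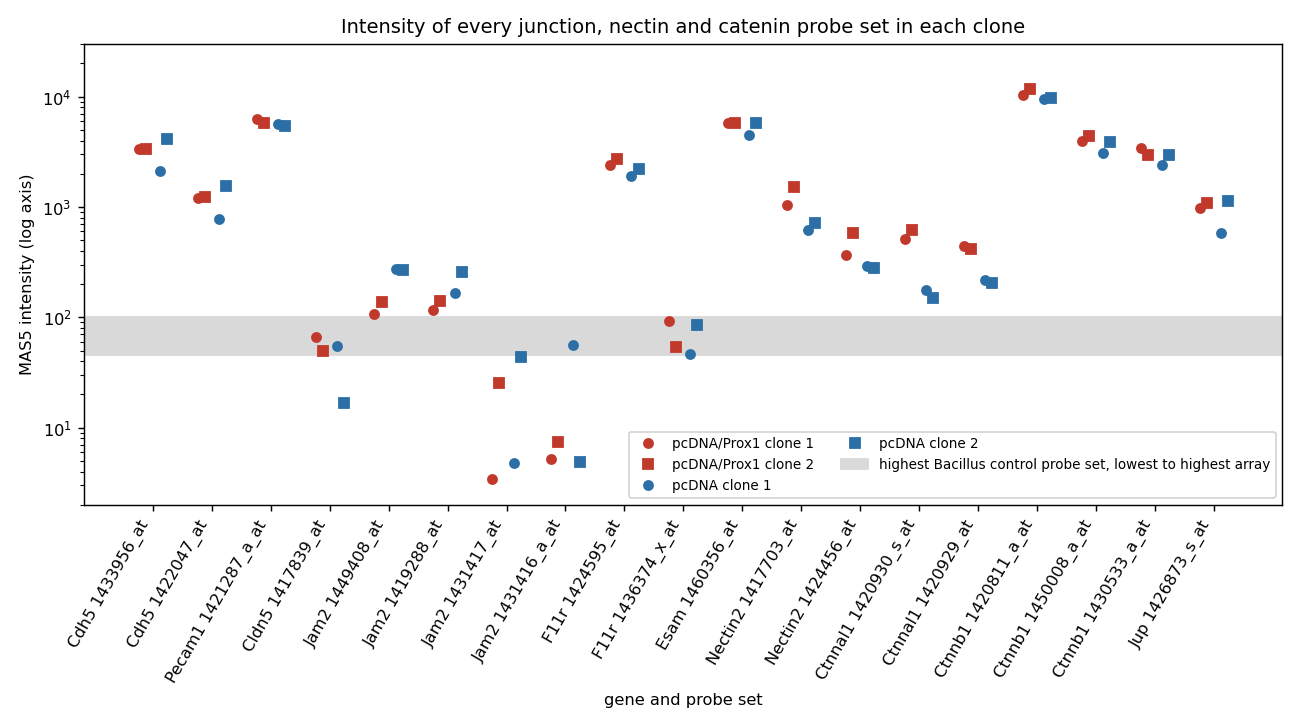
MAS5 intensity (log axis) of the 19 probe sets, by gene and probe set. Red points are Prox1-labelled clones 1 (circle) and 2 (square) and blue points control clones 1 (circle) and 2 (square). The grey band spans the highest Bacillus control probe set of each array, from 45.3 to 101, which 15 probe sets exceeded on all 4 arrays. The array medians, from 163 to 180, lie above the band. Both Ctnnal1 probe sets and both Nectin2 probe sets have their red points above their blue ones.

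Changes are given on the scale log2(intensity + 47), Prox1-labelled minus control, with the standard error and adjusted p of a limma fit over all 11656 probe sets that passed an intensity filter. Of the 19 probe sets, 15 passed it, for 9 of the 10 genes, and Cldn5 had none. The fit called 1 of the 15, a probe set of Ctnnal1 that rose, where 0.103% of all probe sets tested were called in either direction and 0.0944% were called higher. At an unadjusted p under 0.05 stood 5 of the 15, beside 14.5% of all. By gene, at the brightest probe set, it was 3 of 9, beside 14.4% of all genes. Groups did not overlap at 10 of the 15, 8 higher and 2 lower, beside 46.2% of all probe sets tested, 23.9% higher and 22.3% lower. The 2 lower were probe sets of Jam2, which passed the filter through the control clones alone. By gene, groups did not overlap at 6 of 9, beside 46.4% of all genes. In these bulk cultures fewer cells of a type and less RNA per cell cannot be told apart.

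**Figure D2:**
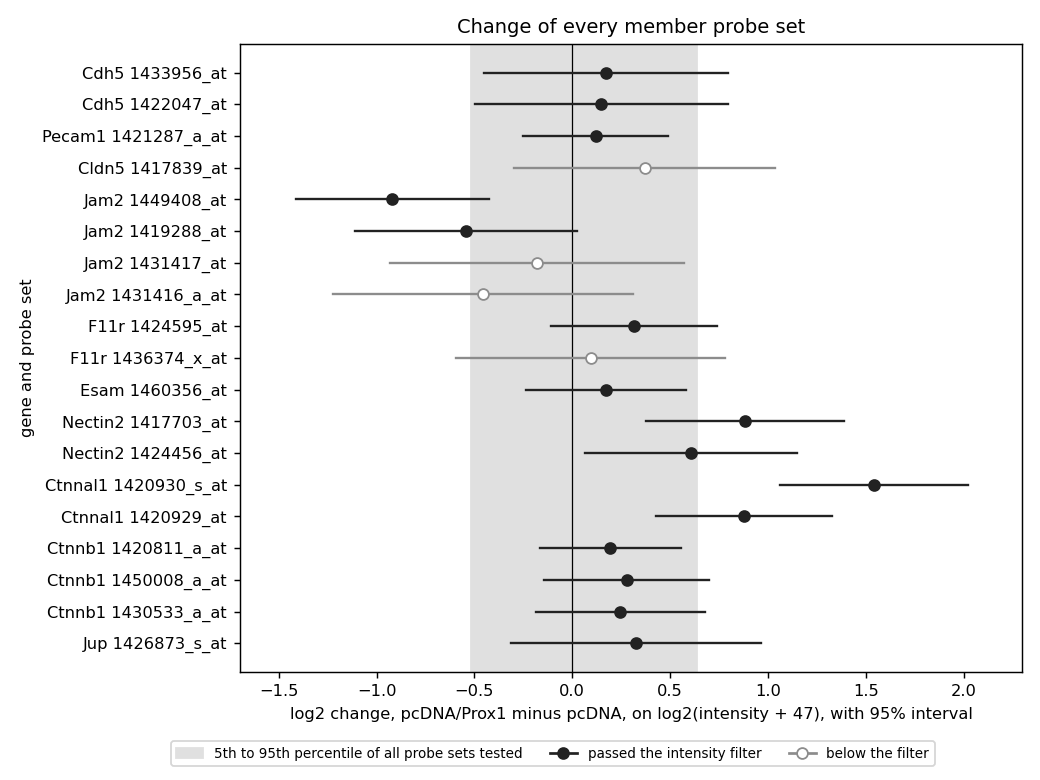
Log2 change (horizontal axis, Prox1-labelled minus control clones) of each of the 19 probe sets, with 95% confidence intervals of the limma fit. Filled points passed the intensity filter and open points did not, and their values come from the fit without it. The grey band holds the middle of all probe sets tested, from -0.52 at the 5th to 0.64 at the 95th percentile. Probe set 1420930_s_at of Ctnnal1, at 1.54, lies farthest to the right, and 1449408_at of Jam2, at -0.92, farthest to the left.

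Among the catenins, Ctnnal1 was higher in both Prox1-labelled clones by both of its probe sets. Probe set 1420930_s_at read 509 and 625 in Prox1-labelled clones 1 and 2, against 178 and 148 in control clones 1 and 2. The lower Prox1-labelled clone stood 2.85-fold above the higher control clone. Control clone 2 lay under its array median of 177, and the 2 Prox1-labelled clones alone would have carried this probe set through the filter. Means were 567 ± 82.1 and 163 ± 21.0 (SD, n = 2 each), a ratio of 3.47, and the log2 change was 1.54 ± 0.21 (95% interval 1.06 to 2.02, limma adjusted p = 0.0467). Only 21 of the 11656 probe sets had a larger positive change, and it was the 12th by p of 12 called. With each clone left out in turn the change lay between 1.41 and 1.68.

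The other Ctnnal1 probe set, 1420929_at, read 441 and 413 in the Prox1-labelled clones, against 218 and 204 in the control clones, so that the groups again did not overlap. Its ratio of means was 2.02 and its log2 change 0.88 ± 0.20 (95% interval 0.43 to 1.33, adjusted p = 0.147), which did not pass. Without control clone 2 its change was 0.84. By its suffix, 1420930_s_at can match more than 1 transcript. The Ctnnal1 call was lost under 5 of 12 alternatives that tested it, with adjusted p of 0.0814 under quantile normalization, 0.0697 with median centring, 0.0598 without a pseudocount, 0.0508 with the robust variance model and 0.367 without the filter.

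Nectin2 was also higher without overlap at both of its probe sets. Nectin-2 is an immunoglobulin-like adhesion molecule that binds itself and other nectins without calcium. Its probe set 1417703_at read 1042 and 1509 in the Prox1-labelled clones, against 614 and 709 in the control clones. The ratio of means was 1.93 and the log2 change 0.88 ± 0.22 (95% interval 0.38 to 1.39, adjusted p = 0.166). Probe set 1424456_at read 366 and 579.7, against 292 and 282, with a log2 change of 0.61 ± 0.24 (95% interval 0.063 to 1.15, adjusted p = 0.295). Prox1-labelled clone 2 was the higher of its group at both, by 1.45-fold and 1.58-fold, and neither passed the threshold. Without Prox1-labelled clone 2 the changes were 0.62 and 0.31, and without Prox1-labelled clone 1 they were 1.14 and 0.91. Without control clone 2 the changes were 0.98 and 0.59.

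RefSeq promoter windows of build GRCm38.p6 were on hand for 6 of the 10 genes, and those of Ctnnal1 and Nectin2, the genes with the largest positive changes among the 9 tested, are shown. Each is the 250 bases before the annotated start, on the gene's strand, at chr4:56865212-56865461 (minus strand) for Ctnnal1 and chr7:19749574-19749823 (minus strand) for Nectin2. Capitals mark matches on either strand to 6 short motifs: the GC box GGGCGG, the CCAAT box CCAAT, the TATA box TATAAA, the ETS core GGAAG, the E-box CACGTG and the AP-1 site TGANTCA.
Ctnnal1 promoter: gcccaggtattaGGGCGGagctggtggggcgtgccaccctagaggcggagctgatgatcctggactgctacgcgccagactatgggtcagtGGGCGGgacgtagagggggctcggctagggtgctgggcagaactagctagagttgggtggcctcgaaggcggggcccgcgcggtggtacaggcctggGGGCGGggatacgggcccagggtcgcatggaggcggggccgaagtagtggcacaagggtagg
Nectin2 promoter: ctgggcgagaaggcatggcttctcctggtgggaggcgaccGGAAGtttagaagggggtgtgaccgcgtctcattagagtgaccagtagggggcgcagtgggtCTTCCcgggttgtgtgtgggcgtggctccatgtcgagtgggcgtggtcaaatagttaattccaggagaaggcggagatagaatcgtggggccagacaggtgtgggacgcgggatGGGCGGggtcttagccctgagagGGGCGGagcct
Both windows held the GC box, 3 matches in Ctnnal1 and 2 in Nectin2, as did 32.7% of the 32851 windows in the table. The ETS core, found in 64.1% of windows, matched at 2 places in Nectin2 and had no match in Ctnnal1. Neither held the CCAAT box (33.8% of windows), the TATA box (12.4%), the E-box form CACGTG (6.02%) or the AP-1 site (6.75%). Other forms of the E-box were not searched. GC content was 68.4% and 62.0%, and the windows had 18 and 16 CpG dinucleotides, where the medians of all windows were 52.4% and 6. A match is a run of letters and was not tested for binding.

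Beta-catenin (Ctnnb1) was bright in all 4 clones, and its 3 probe sets gave small positive changes. Probe set 1420811_a_at read 10301 and 11688 in the Prox1-labelled clones, against 9457 and 9715 in the control clones, and 1450008_a_at read 3967 and 4393, against 3060.2 and 3858. Groups did not overlap at either, although the gap at the second was 1.03-fold. At 1430533_a_at the intensities were 3425 and 2945, against 2408 and 2963, and the groups overlapped. The log2 changes were 0.19 ± 0.16, 0.28 ± 0.19 and 0.25 ± 0.19, with adjusted p from 0.543 to 0.630. Their 95% intervals ran from -0.17 to 0.55, from -0.15 to 0.70 and from -0.18 to 0.68, so that a change of 1 on the log2 scale lies outside each.

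Plakoglobin (Jup), the close relative of beta-catenin that also serves in desmosomes, differed between the control clones. It read 979 and 1085 in Prox1-labelled clones 1 and 2, against 581 and 1130.2 in control clones 1 and 2. Both Prox1-labelled clones lay between the control clones, which were 1.94-fold apart. The log2 change was 0.32 ± 0.28 (95% interval -0.32 to 0.97, adjusted p = 0.656). It turned to -0.13 without control clone 1 and stood at 0.78 without control clone 2.

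Cdh5 showed the same arrangement at both of its probe sets. Probe set 1433956_at read 3340.4 and 3332 in Prox1-labelled clones 1 and 2, against 2133 and 4091 in control clones 1 and 2, and 1422047_at read 1216 and 1236, against 783 and 1543.5. The Prox1-labelled clones were nearly alike, at ratios of 1.00 and 1.02, while control clone 2 was 1.92-fold and 1.97-fold above control clone 1. Log2 changes were 0.17 ± 0.28 and 0.15 ± 0.29 (adjusted p = 0.827 and 0.860), with 95% intervals from -0.45 to 0.80 and from -0.50 to 0.79. Leaving out control clone 1 gave -0.29 and -0.32, and leaving out control clone 2 gave 0.63 and 0.62. The summed endothelial markers given above were also lowest in control clone 1, and their part in this was not tested.

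Pecam1, whose product binds itself across the border and is also found on platelets and leukocytes, varied least over the 4 clones of the 15 probe sets tested. Its intensities were 6242 and 5826 in the Prox1-labelled clones, against 5679 and 5418 in the control clones. The groups did not overlap, but the gap was 1.03-fold and the log2 change 0.12 ± 0.16 (95% interval -0.25 to 0.49, adjusted p = 0.795). Esam, which encodes an immunoglobulin-like adhesion molecule of endothelium and platelets, read 5803.5 and 5736, against 4525 and 5776. Control clone 1 stood below the other 3 arrays, and the log2 change was 0.17 ± 0.18 (95% interval -0.24 to 0.58, adjusted p = 0.723). Without control clone 1 it was -0.0014.

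The junctional adhesion molecule genes had changes of opposite sign, neither past the threshold. F11r, which encodes JAM-A, read 2380.5 and 2745 at 1424595_at in the Prox1-labelled clones, against 1889 and 2217 in the control clones. The groups did not overlap, with a log2 change of 0.31 ± 0.19 (95% interval -0.11 to 0.74, adjusted p = 0.482). Its other probe set, 1436374_x_at, lay below the filter at 92.5 and 54.0, against 46.8 and 85.0, and exceeded the highest Bacillus control on 2 of the 4 arrays.

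Jam2, which encodes JAM-B, was the only gene of the 9 tested with a negative change. Probe set 1449408_at read 108 and 137 in Prox1-labelled clones 1 and 2, against 276 and 269 in control clones 1 and 2. Both Prox1-labelled clones lay below both control clones, and the ratio of their means was 0.449. The log2 change was -0.92 ± 0.22 (95% interval -1.41 to -0.43, adjusted p = 0.154), and 59 of the 11656 probe sets had a more negative one. Probe set 1419288_at read 117 and 139, against 165 and 258, with a log2 change of -0.54 ± 0.25 (adjusted p = 0.362). Both passed the filter through the control clones alone, since the Prox1-labelled clones lay under their array medians. They stood above the highest Bacillus control on every array, and neither passed the threshold.

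The remaining pair of Jam2 probe sets was too dim to give a direction. Probe set 1431417_at read 3.41 and 25.3, against 4.80 and 43.6, and 1431416_a_at read 5.20 and 7.46, against 55.9 and 4.94. Of these, 1 reading of 8, that of 1431416_a_at in control clone 1, exceeded the highest Bacillus control of its array. Cldn5, the main claudin of the brain endothelium, was likewise at background, with 66.2 and 49.5 in the Prox1-labelled clones, against 55.5 and 16.7 in the control clones. It exceeded the Bacillus controls in control clone 1 alone and was not well above background in any group, so no fold is given.

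**Figure D3:**
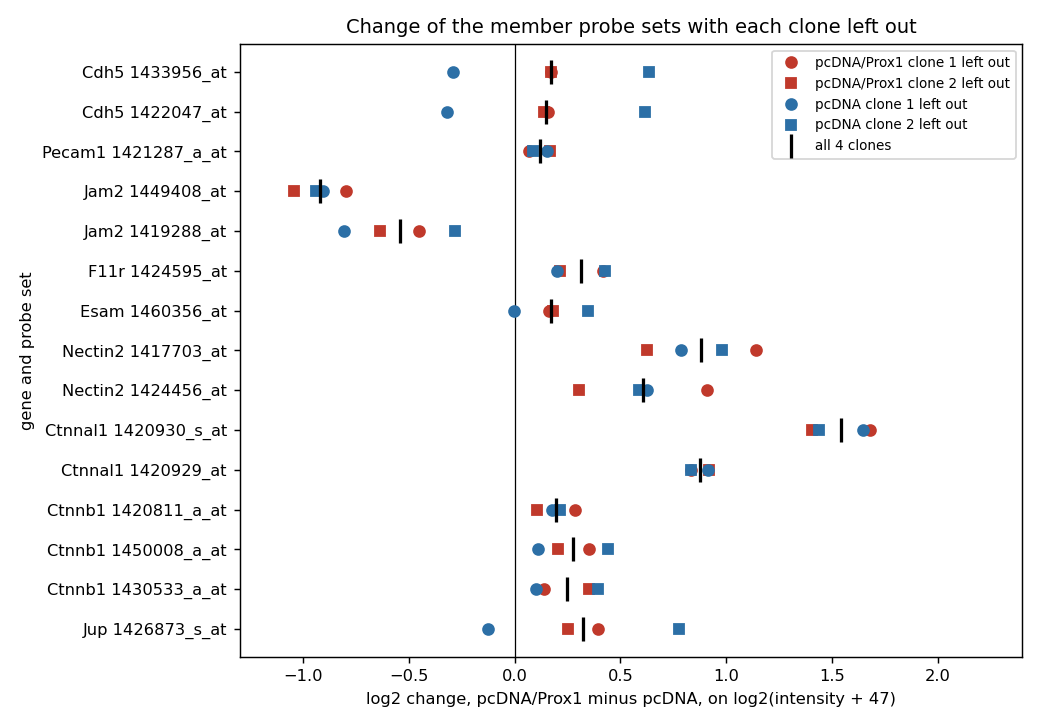
Log2 change (horizontal axis, Prox1-labelled minus control clones) of the 15 probe sets that passed the filter, with all 4 clones (black bar) and with 1 clone left out (red, a Prox1-labelled clone; blue, a control clone; circle, clone 1; square, clone 2). The blue points of Cdh5 and Jup lie on either side of 0, from -0.32 to 0.78, while all points of 1420930_s_at of Ctnnal1 lie between 1.41 and 1.68.

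Prox1-labelled clones were more than 1.5-fold apart at 1 of the 15 probe sets, 1424456_at of Nectin2, beside 6.67% of all probe sets tested. Control clones were that far apart at 4, both of Cdh5, that of Jup and 1419288_at of Jam2, beside 18.3% of all. Control clone 1 held the lowest of the 4 values at 9 of the 15 probe sets, beside 33.6% of all. Over the arrays as a whole, 60 probe sets differed at least 2-fold between the Prox1-labelled clones and 355 between the control clones.

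Other genes of junctions, of their regulation and of beta-catenin signalling were grouped in 8 lists of 168 genes. Of these, 74 were tested by their brightest probe set and limma called 0, beside 0.115% of 6956 genes. At an unadjusted p under 0.05 stood 10 of the 74, beside 14.4% of all genes. Their groups did not overlap at 37 of the 74, beside 46.4% of all genes, and 46 were positive with a median log2 change of 0.13, beside 50.9% of all genes and a median of 0.0074. Without control clone 1 that median was 0.013, with 37 positive, and without Prox1-labelled clone 1 it was 0.047. Without the filter it was 0.028 over 144 genes. The 9 member genes had a median of 0.19, with 8 positive. Without control clone 1, 5 of the 9 were positive, and without control clone 2 the median was 0.43.

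A list of 20 genes of adherens junctions and catenins holds direct partners of the members and also other genes. Of the list 8 passed the filter and 6 were positive (median 0.29, but 0.069 without control clone 1 and 0.47 without control clone 2). Cdh13, a cadherin anchored to the membrane by a lipid, read 428 and 474 in the Prox1-labelled clones, against 144 and 326 in the control clones (0.90, adjusted p = 0.238), and Ctnnbip1, an inhibitor of beta-catenin's binding to TCF factors, gave 0.39 (adjusted p = 0.475). Alpha-catenin (Ctnna1), chosen after its values were seen as the partner of beta-catenin, read 6508 and 6397, against 3834 and 6895 (0.32, adjusted p = 0.614), and control clone 1 was again the lowest. The p120-catenin gene Ctnnd1, chosen likewise as a partner of VE-cadherin, gave 0.28 (adjusted p = 0.606).

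Of the nectin family and its relatives 2 of 11 listed genes were tested. Pvr, the gene of the poliovirus receptor, a nectin-like molecule, gave -0.41 (adjusted p = 0.419) at its brightest probe set and 0.38 at 1450295_s_at, so its direction is not settled, and Nectin3 gave 0.15 (adjusted p = 0.789). In the tight junction list 5 of 33 were tested and 4 were positive (median 0.17). That median was 0.041 without Prox1-labelled clone 1, 0.31 without Prox1-labelled clone 2, -0.016 without control clone 1 and 0.36 without control clone 2. Tjp1, the gene of the scaffold ZO-1 that binds claudins and JAM-A, read 2922 and 3278 in the Prox1-labelled clones, against 1639 and 2397 in the control clones (0.63, adjusted p = 0.248), and the scaffold gene Magi3 gave 0.44 (adjusted p = 0.365). The desmosomal plakophilin gene Pkp2, the 1 of 11 desmosome genes tested, gave 0.49 (adjusted p = 0.337), and it passed the filter through the Prox1-labelled clones alone. Of the gap junction list 2 of 10 were tested, the connexin genes Gjc1 (-0.17, adjusted p = 0.867) and Gja1 (-0.072, adjusted p = 0.898), and 2 of the 6 Gja1 probe sets were positive. The median of the pair was -0.12, turning to 0.028 without Prox1-labelled clone 1 and 0.10 without control clone 1, with -0.27 without Prox1-labelled clone 2 and -0.34 without control clone 2.

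Other border molecules of endothelium had a median of 0.18, with 11 of 15 positive, but 0.050 without Prox1-labelled clone 1 and 0.11 without control clone 1. The smallest p there belonged to Cd47, an integrin-associated receptor (-0.46, adjusted p = 0.288), and to the adhesion gene Mcam (-0.38, adjusted p = 0.417). Of 26 junction regulators tested 18 were positive (median 0.16, but 0.068 without Prox1-labelled clone 1, 0.24 without Prox1-labelled clone 2 and 0.011 without control clone 1). The angiopoietin receptor gene Tek, whose product lies at endothelial contacts, read 1005 and 857 in the Prox1-labelled clones, against 377 and 579 in the control clones (0.92, adjusted p = 0.166), and the small GTPase gene Rhob gave 0.47 (adjusted p = 0.264).

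The list of the beta-catenin destruction complex and Wnt targets had 5 of 15 positive and a median of -0.15, which was -0.017 without Prox1-labelled clone 2, -0.036 without control clone 1 and -0.31 without control clone 2. Ccnd1, the cyclin D1 gene, read 5114 and 4022, against 3105 and 2336 (0.74, adjusted p = 0.188), and Tcf7l1, a TCF factor that binds beta-catenin, gave 0.71 (adjusted p = 0.233). These were named for their small p, while 10 of the 15 genes were negative. Among those, Nkd2 was lower without overlap (-0.51, adjusted p = 0.329). The list mixes the destruction complex with Wnt targets, so its median gives no direction of the pathway. Axin2, a common readout of Wnt signalling, was not among the genes that passed the filter. Over all 74 genes of the lists the median without control clone 2 was 0.13, with 43 positive.

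**Figure D4:**
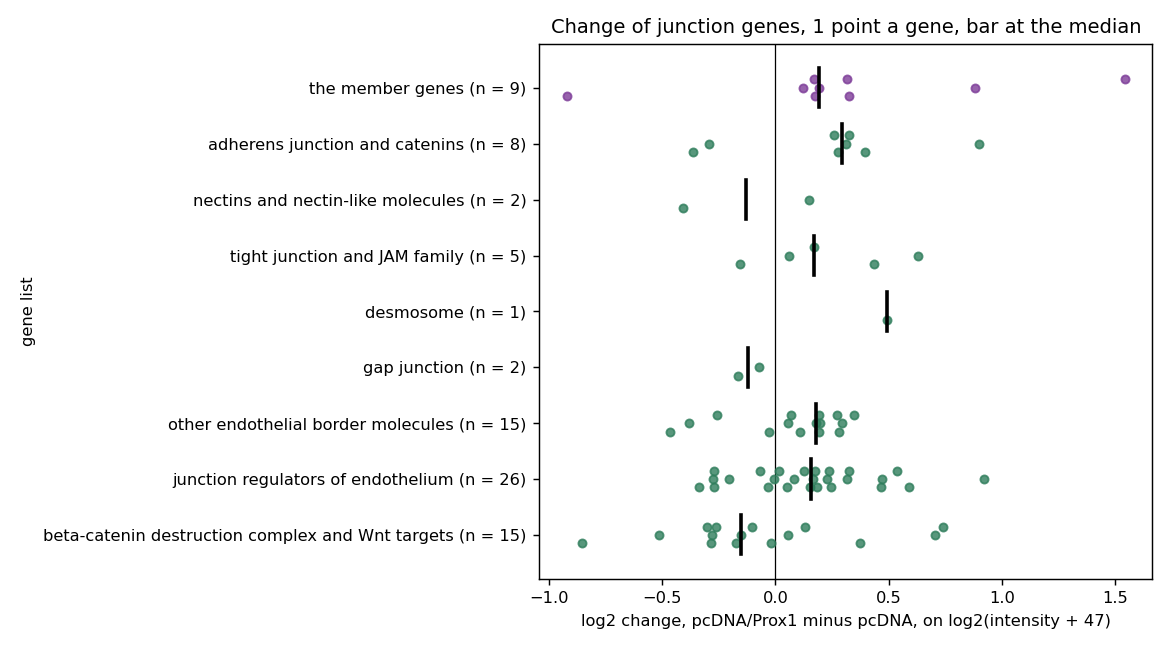
Log2 change (horizontal axis, Prox1-labelled minus control clones) of the member genes and of 8 lists of genes of junctions, their regulation and beta-catenin signalling. Each gene tested has 1 point for its brightest probe set, and a black bar marks the median. The member genes (n = 9) reach from -0.92 for Jam2 to 1.54 for Ctnnal1. Medians lie between -0.15 for the beta-catenin destruction complex and Wnt targets and 0.49 for the desmosome list, which holds 1 gene.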

How the data were processed

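RNA of 4 clones of Py-4-1 cells, about 10 µg each, was read on one-colour Affymetrix arrays, per the labels' protocols. The authors deposited linear intensities, 1 for each probe set and array, summarised with MAS5, per the submitters' processing notes. Each array had a trimmed mean of 500 (2% off either end), and the sources used here do not give the version of MAS5. Groups and clone numbers came from the titles.

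Of 22690 probe sets 64 Affymetrix controls were left out, 20380 had 1 gene in the platform annotation, 691 several and 1555 none. Intensities were analysed as log2(intensity + 47), 47 being the 25th percentile of all values, which makes the changes of dim probe sets smaller. Those above their array's median in at least 2 of 4 arrays were tested (11656, for 6956 genes) with limma 3.58.1 in R 4.3.3, with an intensity trend, 2-sided, Benjamini-Hochberg adjustment over all of them and a threshold of 0.05. Probe sets below the filter were read from the same fit without it. For 2 clones against 2 the smallest p of an exact permutation test is 0.333. Precision is limited by the number of arrays. Limma draws the spread between 2 clones a group toward that of probe sets of like intensity, and p-values and standard errors rest on this. The fit was also run on simulated data.

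All members were named, and of each junction list the genes past the threshold or else the 2 with the smallest unadjusted p, by each gene's brightest probe set. The members and lists were chosen with earlier results of these data known. Same-numbered clones did not deviate together (correlation of deviations from the group means -0.0091). Alternatives were other normalizations, pseudocounts, filters and variance models, a block for the clone number, leaving out clones and leaving out probe sets by suffix.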

Additional observations from a re-analysis of the deposited data

How the results depend on the processing

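Over all probe sets limma called 12, against 4 under quantile normalization, 0 without the filter (2300 at an unadjusted p under 0.05), 7 with the robust variance model, 6 without the suffixed probe sets and 42 to 1150 with a clone left out. With the clone number as a replicate block it called 110, and the block changed no call among the members or lists. The same-numbered clones share only a number, per the labels. Member probe sets called were 0, not 1, under quantile normalization, median centring, no pseudocount, no filter, the filter at the 75th percentile, the robust variance model and without suffixed probe sets, with 1 to 6 at an unadjusted p under 0.05, and 1 to 5 with a clone left out. The filter at the 75th percentile and the suffix setting did not test 1420930_s_at of Ctnnal1. For the others the cause was not tested. Of the junction lists 0 to 10 genes were called with a clone left out. Leaving out a clone leaves 1 array in its group, assumed to vary like the other group.

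Among member probe sets signs turned only on leaving out a clone, in ranges from -0.29 to 0.63 (1433956_at) and -0.32 to 0.62 (1422047_at) for Cdh5, -0.0014 to 0.35 for Esam, -0.13 to 0.78 for Jup, -0.15 to 0.34 for 1436374_x_at of F11r, and -0.95 to 0.038 (1431416_a_at) and -0.58 to 0.22 (1431417_at) for Jam2. The mean over the probe sets tested, chosen after seeing the data, gave 1.21 for Ctnnal1 and -0.73 for Jam2. List medians also turned in sign without the filter (tight junction, -0.0044) and without suffixed probe sets (nectins, 0.11, against -0.13).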
